A study of Mus musculus with 12 samples.

Results

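Voltage-gated calcium channels of neurons are built around a pore subunit that is accompanied by auxiliary subunits. The 7 genes described here encode such subunits: the 4 β subunit genes Cacnb1, Cacnb2, Cacnb3 and Cacnb4, and the 3 α2δ subunit genes Cacna2d1, Cacna2d2 and Cacna2d3. They were picked out of the tables by gene symbol, without a threshold on any value, and make up 7 of the 44345 gene names in the count tables. All 7 were present in both tables and passed the filter on low counts in both preparations. The remaining α2δ gene, Cacna2d4, and the γ subunit genes are described with the related genes at the end.

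β subunits are cytoplasmic proteins that bind the pore subunit, help it reach the plasma membrane and set the voltage dependence and speed of gating. α2δ subunits are extracellular proteins anchored to the membrane that raise the number of channels at the cell surface and at presynaptic terminals. In sensory neurons the product of Cacna2d1 is the binding site of the analgesics gabapentin and pregabalin, and its level is known to rise after injury of peripheral nerves.

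Dorsal root ganglia, which hold the cell bodies of somatosensory neurons, were taken at the lumbar levels that feed the sciatic nerve from C57BL/6 mice aged 5 to 8 weeks. The mice had lived for 10 days under environmental enrichment (EE) or under standard housing (SH), and the sample labels give no other treatment or genotype. The columns of the whole-ganglion tables also carry the word Sham, in both housings, which the labels do not explain. Each whole-ganglion library pooled ganglia of 2 mice. Each captured library held neurons with a diameter of at least 30 µm, cut with a laser from toluidine blue stained sections of 16 µm, from 3 mice. There were 3 libraries for each housing and preparation, 12 in all. Whether libraries of 1 group held different mice is not stated, so p-values measure only the spread between libraries, which may be technical.

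Promoter sequences are shown for the gene with the lowest level of the 7, Cacnb2, and for the 2 with the highest, Cacnb3 and Cacna2d1. The RefSeq table for GRCm38.p6 held at least 1 window for all 7 genes, and each sequence is the 250 bases upstream of a RefSeq transcript start, written 5′ to 3′ on the gene's strand. Capitals mark CG dinucleotides. Cacnb2 has a window at chr2:14604056-14604305 and another further into the gene at chr2:14823842-14824091, both on the plus strand. Cacnb3 also has another window, at chr15:98632078-98632327, which is not shown. The Cacnb3 window shown lies at chr15:98634517-98634766 and the Cacna2d1 window at chr5:15934441-15934690, also on the plus strand.
Cacnb2, first window: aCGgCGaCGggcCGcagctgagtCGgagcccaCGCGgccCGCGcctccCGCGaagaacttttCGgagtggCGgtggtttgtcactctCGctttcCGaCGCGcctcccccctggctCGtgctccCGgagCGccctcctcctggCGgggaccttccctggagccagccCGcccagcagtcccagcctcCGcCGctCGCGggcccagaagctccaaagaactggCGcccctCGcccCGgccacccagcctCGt
Cacnb2, second window: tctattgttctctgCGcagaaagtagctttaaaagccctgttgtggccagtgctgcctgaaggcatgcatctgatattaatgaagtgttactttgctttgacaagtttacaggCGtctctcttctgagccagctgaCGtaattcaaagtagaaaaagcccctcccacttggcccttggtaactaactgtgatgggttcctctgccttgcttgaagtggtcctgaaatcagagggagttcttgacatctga
Cacnb3: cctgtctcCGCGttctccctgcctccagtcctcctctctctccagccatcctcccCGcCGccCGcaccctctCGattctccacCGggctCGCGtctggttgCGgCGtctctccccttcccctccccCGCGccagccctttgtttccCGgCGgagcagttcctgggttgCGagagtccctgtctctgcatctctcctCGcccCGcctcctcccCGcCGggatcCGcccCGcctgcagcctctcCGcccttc
Cacna2d1: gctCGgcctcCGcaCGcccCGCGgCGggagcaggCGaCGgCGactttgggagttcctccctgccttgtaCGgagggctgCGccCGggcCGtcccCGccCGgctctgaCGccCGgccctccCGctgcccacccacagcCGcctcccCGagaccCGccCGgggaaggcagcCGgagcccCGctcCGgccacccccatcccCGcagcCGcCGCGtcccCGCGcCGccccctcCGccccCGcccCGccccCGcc

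The first Cacnb2 window held 30 CG dinucleotides at a GC content of 73.2% and the second held 3 at 46.0%. The Cacnb3 window held 23 at 70.4% and the Cacna2d1 window 36 at 82.4%, against a median of 6 over all 32851 windows of this length (quartiles 2 and 16). Over both strands, the GC box letters GGGCGG occurred 6 times in the Cacna2d1 window, 3 times in the Cacnb3 window and once in the first Cacnb2 window, and 32.7% of all windows held them. The letters TGACG, the core of the cAMP response element and part of the full letters TGACGTCA, occurred once in the second Cacnb2 window and once in the Cacna2d1 window, and in 17.8% of all windows. No window of the 7 genes held the TATA box letters TATAAA (12.4% of all windows) or the full TGACGTCA (1.55%). The Cacnb3 window not shown held 2 CG dinucleotides at a GC content of 56.0%. Low and high members alike thus had a CG-rich window, and Cacnb2 and Cacnb3 each had a CG-poor one as well. Cacnb1 and Cacnb4, not shown, also had a CG-poor window, with 1 and 4 CG dinucleotides. Each α2δ gene had a single window, with 36 in Cacna2d1, 34 in Cacna2d2 and 30 in Cacna2d3.

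Between 11343579 and 17036481 reads lay in genes per whole-ganglion library and between 19296230 and 29434351 per captured library. Markers of large-diameter neurons, such as neurofilament genes, were detected for all 14 genes listed in both preparations, and so were all 14 nociceptor markers (genes of small neurons that sense pain and itch). Marker sums are given in CPM, read counts scaled to a common library total. In SH, nociceptor markers summed to 4048 to 4709 CPM in captured neurons and 3931 to 4425 in whole ganglia. Large-neuron markers summed to 9070 to 11474 and 15256 to 16354 CPM, and were thus not higher in captured neurons. Markers of neurons of all sizes were also lower there (6030 to 6415 against 11094 to 11201 CPM). So were those of myelinating Schwann cells (1116 to 1451 against 7504 to 9197 CPM). The preparations also differed in library kit, so whether large neurons were enriched cannot be told from these sums. Captured SH replicate 2, the only library sequenced in lane 2, stood apart through skeletal muscle genes. Its summed level of 14 such genes was 2418 CPM, against 31.2 to 65.5 in the other captured SH libraries and 31.4 to 60.6 in EE. Captured EE replicate 1 was the only library of lane 1, and the other 4 captured libraries shared lane 3. Results in captured neurons are therefore also given without SH replicate 2 and within lane 3.

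Per transcript length, Cacnb3 was the most abundant of the 7 genes in whole ganglia and Cacna2d1 in captured large neurons. Levels between genes are given as CPM per kilobase (CPM/kb), means ± SD of the 3 SH libraries. In whole ganglia Cacnb3 stood at 90.9 ± 9.58, Cacna2d1 at 38.0 ± 2.67, Cacna2d3 at 19.8 ± 0.824, Cacnb4 at 19.1 ± 1.44, Cacnb1 at 10.2 ± 0.919, Cacna2d2 at 4.52 ± 0.510 and Cacnb2 at 0.558 ± 0.0303 CPM/kb. Cacna2d3 and Cacnb4 overlapped between libraries and could not be ordered, while the libraries of all other neighbours in this order were separate.

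In captured neurons the order was Cacna2d1 at 86.5 ± 10.8, Cacnb3 at 51.4 ± 3.52, Cacnb4 at 32.0 ± 3.99, Cacna2d3 at 16.2 ± 1.43, Cacnb1 at 6.32 ± 0.440, Cacna2d2 at 4.58 ± 0.665 and Cacnb2 at 0.909 ± 0.0678 CPM/kb. No neighbours in this order overlapped. Cacna2d1 was thus first and Cacnb2 last. In CPM, Cacna2d1 was 2.27 times its whole-ganglion level, Cacnb4 1.68 times and Cacnb2 1.63 times. Conversely, Cacnb3 was 1.77 times, Cacnb1 1.61 times and Cacna2d3 1.22 times higher in whole ganglia. The ratio of captured over whole was 1.01 for Cacna2d2. These CPM were scaled by the trimmed mean of M values (TMM) within each preparation apart. TMM over all 12 libraries gave factors of 1.07 to 1.09 for whole SH and 0.91 to 0.94 for captured SH libraries. By those factors captured levels would stand higher against whole ones, so ratios near 1 depend on the scaling. Whole ganglia were made into libraries by poly(A) selection and captured neurons by depletion of ribosomal RNA, with RIN (a score of RNA quality) above 7.5 against 6 to 7, reads of 100 against 125 bases and 2 against 3 mice per library. The effects of capture, kit, RNA quality, read length and pooling cannot be told apart, and the gap was left without a test.

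The make-up of each family differed between preparations in the same way. Of the summed β subunit CPM/kb in whole SH ganglia, Cacnb3 made up 75.2 ± 1.48%, Cacnb4 15.9 ± 1.47%, Cacnb1 8.43 ± 0.0387% and Cacnb2 0.465 ± 0.0470%. In captured SH neurons these shares were 56.8 ± 1.06%, 35.3 ± 1.32%, 6.98 ± 0.298% and 1.01 ± 0.150%. Cacnb4, whose product is a β subunit found widely in brain neurons, thus held a larger share of the β transcripts in the captured libraries. Its exons overlap those of A430018G15Rik on the opposite strand, which had a mean of 547 reads per whole-ganglion library and 51.7 per captured library, against 2158 to 3128 and 4770 to 7578 reads of Cacnb4. Whether the counting used strand is not given in the sources used here, so reads of this pair may not have been told apart, and the effect on the Cacnb4 level and share was not tested. Cacna2d1 made up 61.0 ± 2.68% of the α2δ family in whole SH ganglia and 80.5 ± 1.96% in captured SH neurons. Cacna2d3, the main α2δ gene next to it, went from 31.8 ± 1.84% to 15.2 ± 2.15%, and Cacna2d2 from 7.26 ± 0.886% to 4.25 ± 0.194%. The summed α2δ level was 0.519 ± 0.0474 of the summed β level in whole SH ganglia and 1.18 ± 0.0546 of it in captured SH neurons.

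**Figure D1:**
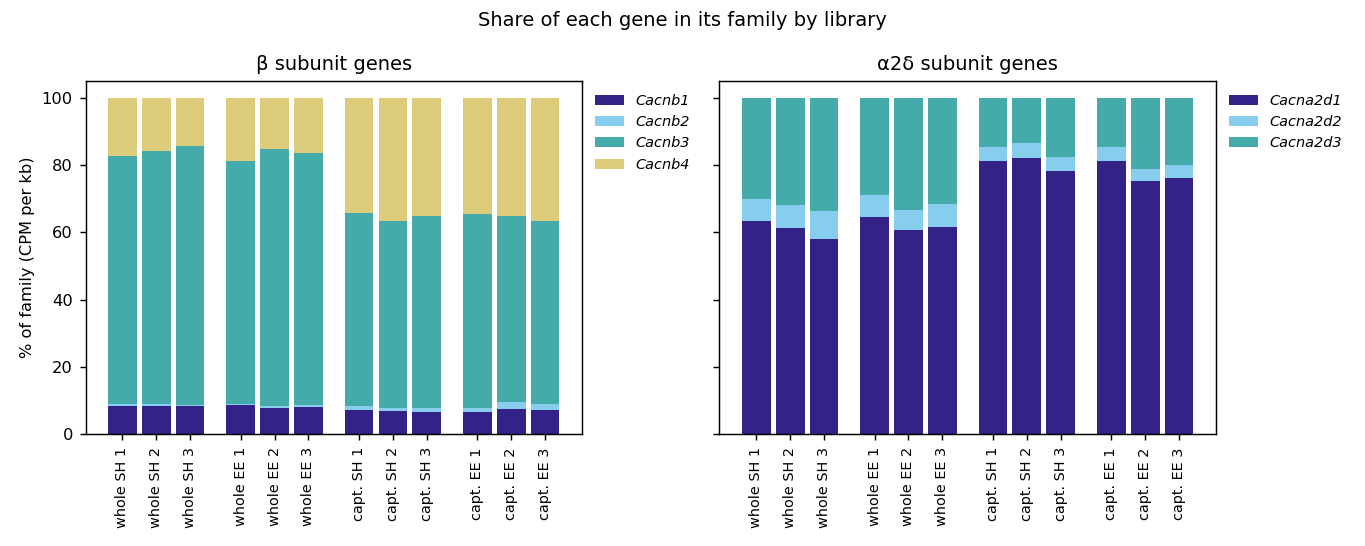
Share of each gene in the summed CPM per kilobase of its family (%, vertical axis) in each of the 12 libraries, β subunit genes on the left and α2δ subunit genes on the right. Cacnb3 holds the largest β share throughout, Cacnb4 holds more of the captured bars than of the whole bars, and Cacna2d1 holds more of the captured α2δ bars than of the whole ones.

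The plot of family shares puts the gap between preparations beside that between housings, and within a preparation the bars of SH and EE look alike. The clearest exception was the small share of Cacnb2 in captured neurons. It was 1.18, 0.893 and 0.960% in SH replicates 1 to 3 and 1.27, 1.90 and 1.68% in EE replicates 1 to 3, so that every EE library lay above every SH library.

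In whole ganglia none of the 7 genes passed the threshold between housings, and their levels differed little. CPM and CPM/kb of genes and families, above and below, were scaled by TMM within each preparation, and marker sums by library size alone. The test was edgeR's quasi-likelihood test with Benjamini-Hochberg adjustment over all genes. The housing groups overlapped for all 7 genes, while 7.48% of all 15845 genes tested were separate. The count of members past the threshold (an adjusted p under 0.05) was 0, where 0.00631% of all genes passed, and 0 members had an unadjusted p under 0.05, where 2.9% of all genes did. DESeq2, limma-voom and the edgeR likelihood ratio test also called 0 members. Log2 fold changes (EE over SH) were above 0 for 4 members (51.3% of all genes) and below 0 for 3 (48.7%), with a median of 0.04 over the 7 genes and 0.0028 over all genes.

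Cacnb3, the β subunit linked mostly to the N-type channels of sensory neurons, read 272, 264 and 319 CPM in SH replicates 1 to 3 and 276, 296 and 278 CPM in EE replicates 1 to 3 of whole ganglia. SH replicate 3 was the highest of the 6 libraries, and the log2 fold change of −0.01 (SE 0.078) had a 95% interval of −0.18 to 0.16. Cacnb1, the β subunit that muscle channels require, read 44.9, 43.0 and 51.0 CPM in SH and 48.0, 44.8 and 44.5 CPM in EE. It was again highest in SH replicate 3, with a log2 fold change of −0.02 (SE 0.080). Cacnb4 read 184, 158 and 173 CPM in SH and 207, 168 and 176 CPM in EE, and its log2 fold change was 0.09 (SE 0.085). Within each sequencing lane the EE library was the higher for Cacnb4, by 0.17, 0.09 and 0.03 on the log2 scale. Cacnb2, the β subunit best known from heart channels, lay between 4.84 and 5.36 CPM in all 6 libraries, on 59 to 91 reads, with a log2 fold change of 0.04 (SE 0.15).

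Among the α2δ genes of whole ganglia, Cacna2d1 had the smallest p of the 7. It read 310.0, 281 and 271 CPM in SH and 353, 282 and 313 CPM in EE. EE replicate 1 was the highest library and EE replicate 2 lay within the SH range. Within each lane the EE library was the higher, by 0.19, 0.0043 and 0.21 on the log2 scale. The log2 fold change was 0.14 (SE 0.084, 95% interval −0.04 to 0.32), adjusted p = 0.9996 by edgeR's quasi-likelihood test with Benjamini-Hochberg adjustment. Cacna2d3 read 71.8, 71.5 and 77.0 CPM in SH and 77.8, 76.2 and 78.6 CPM in EE, so that the ranges touched only through SH replicate 3. Its log2 fold change was 0.08 (SE 0.067), and its EE library was the higher in each lane, by 0.11, 0.09 and 0.03. Cacna2d2 read 26.2, 25.3 and 31.1 CPM in SH and 28.4, 22.6 and 28.8 CPM in EE, spreading more within each housing than between them (log2 fold change −0.05, SE 0.11). The 95% intervals of the 7 log2 fold changes reached no lower than −0.28 (Cacna2d2) and no higher than 0.36 (Cacnb2).

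**Figure D2:**
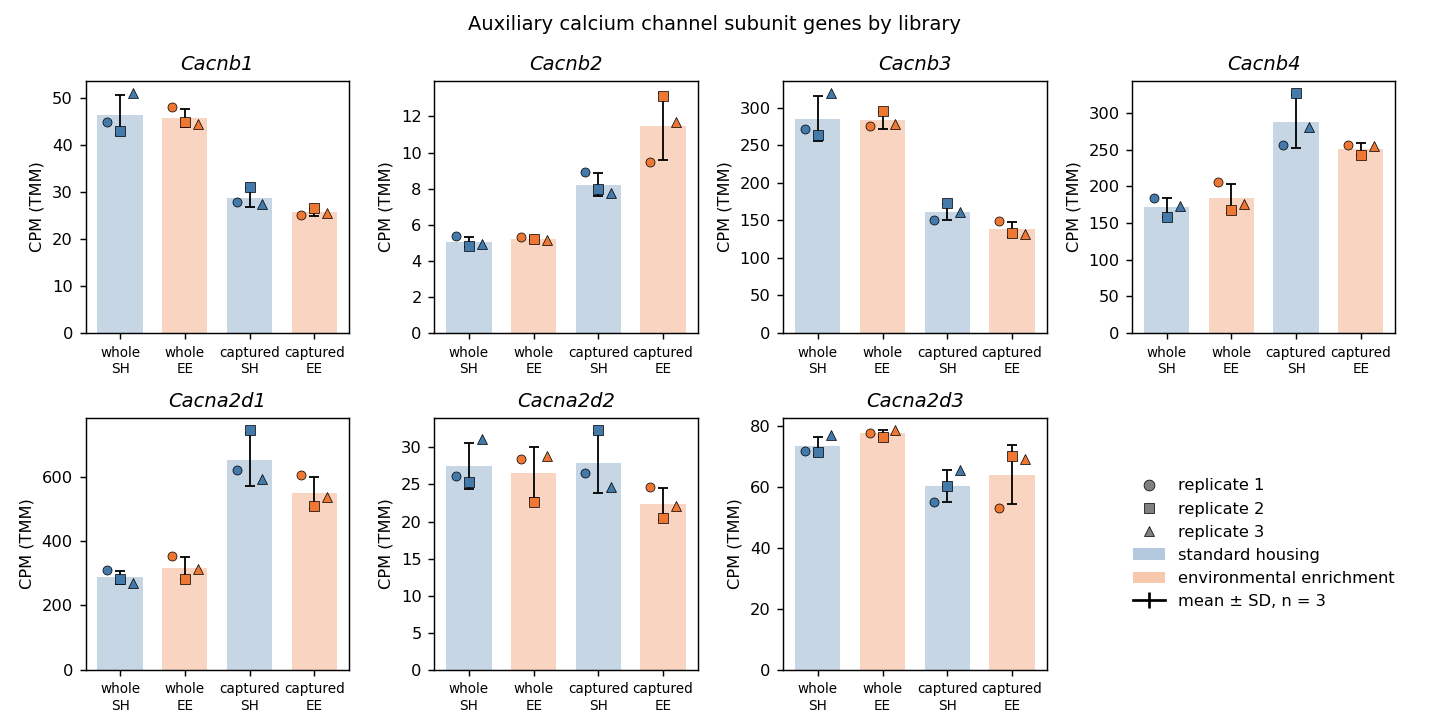
Level of each of the 7 genes in CPM (vertical axis, TMM-scaled, starting at 0 and different for each gene) in whole ganglia and captured neurons of SH (blue) and EE (orange); bars are means of 3 libraries, whiskers SD and symbols single libraries by replicate number. Captured SH replicate 2 is the highest captured SH library for Cacnb1, Cacnb3, Cacnb4, Cacna2d1 and Cacna2d2, and Cacnb2 lies above its captured SH libraries in all 3 EE libraries.

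In captured large neurons, too, none of the 7 genes passed the threshold, but 5 of them had 95% intervals that left out 0. Cacnb2 was higher in EE (8.23 ± 0.614 CPM in SH, 11.5 ± 1.84 CPM in EE, SD, n = 3) and Cacnb1, Cacnb3, Cacnb4, Cacna2d1 and Cacna2d2 were lower, by 0.17 to 0.31 on the log2 scale, none of these past the threshold. Cacna2d3 lay at 60.2 ± 5.29 CPM in SH and 64.0 ± 9.57 CPM in EE. The count past the threshold was 0 of 7 in edgeR's quasi-likelihood test, where 0.0185% of all 16186 genes passed. DESeq2 (5.44% of the 9587 genes to which it gave an adjusted p passed), limma-voom and the likelihood ratio test also called 0. At an unadjusted p under 0.05 there were 5 of 7 members, against 15.9% of all genes and 20.5% of those with an average log2 CPM of at least 3. Of the 5, 1 was higher in EE, as were 7.3% of all genes, and 4 were lower, as were 8.62%. Without SH replicate 2, only 1 of 4 β genes and 0 of 3 α2δ genes had an unadjusted p under 0.05. Within lane 3 these counts were 2 of 4 and 3 of 3. The shares of all genes at that p were not computed for these fits. The groups were separate for 4 of 7 members, against 21.1% of all genes, 1 with EE above SH (10.2% of all genes) and 3 with EE below (10.9%). The log2 fold change was above 0 for 2 members (49.9% of all genes) and below 0 for 5 (50.1%). The median log2 fold change was −0.20 over the 7 genes and −0.00059 over all genes.

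Cacnb2 had the smallest p of the 7 in captured neurons. Its levels were 8.92, 8.00 and 7.76 CPM in SH replicates 1 to 3 and 9.49, 13.2 and 11.7 CPM in EE replicates 1 to 3, on 150 to 177 reads in SH and 255 to 281 in EE. All 3 EE libraries lay above all 3 SH libraries, EE replicate 1 by the smallest margin. The log2 fold change was 0.47 (SE 0.15, 95% interval 0.14 to 0.80, a 1.39-fold difference), with an adjusted p of 0.179 (Benjamini-Hochberg) in edgeR's quasi-likelihood test. It ranked 854 of 16186 genes by p. Without EE replicate 1 it was 0.59 (SE 0.14) and passed the threshold (adjusted p = 0.0466, same test), in a fit where 3.64% of all genes passed. Within lane 3 it was 0.57 (SE 0.15, adjusted p = 0.0529), where 4.06% passed, and without SH replicate 2 it was 0.45 (SE 0.17, adjusted p = 0.482).

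The other 3 β subunit genes were lower in every captured EE library than in any captured SH library, without passing the threshold. Cacnb3 read 150.4, 172 and 161 CPM in SH and 149.6, 133 and 132 CPM in EE, where EE replicate 1 lay just under SH replicate 1. The log2 fold change was −0.22 (SE 0.077, 95% interval −0.39 to −0.05), adjusted p = 0.207 by edgeR's quasi-likelihood test with Benjamini-Hochberg adjustment. Cacnb4 read 256.5, 327 and 281 CPM in SH and 256.0, 242 and 255.0 CPM in EE, a gap between the groups of less than 1 CPM, with a log2 fold change of −0.20 (SE 0.087, adjusted p = 0.297). Cacnb1 read 27.8, 31.1 and 27.4 CPM in SH and 25.0, 26.5 and 25.4 CPM in EE, with a log2 fold change of −0.17 (SE 0.084, adjusted p = 0.367). Without SH replicate 2, the highest library for all 3, the log2 fold changes were −0.17 for Cacnb3, −0.10 for Cacnb4 and −0.11 for Cacnb1. Within lane 3 they were −0.23, −0.11 and −0.09.

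Of the α2δ genes in captured neurons, Cacna2d1 read 622, 746 and 592 CPM in SH and 605, 509 and 538 CPM in EE. EE replicate 1 lay inside the SH range, and SH replicate 2 stood above all others. The log2 fold change was −0.25 (SE 0.096, 95% interval −0.46 to −0.03), with an adjusted p of 0.247 (Benjamini-Hochberg) in edgeR's quasi-likelihood test. Values were −0.14 (SE 0.081) without SH replicate 2 and −0.21 (SE 0.057, adjusted p = 0.0556) within lane 3. Cacna2d2, which encodes the α2δ subunit mutated in the ducky mouse, read 26.6, 32.4 and 24.6 CPM in SH and 24.7, 20.4 and 22.1 CPM in EE. The groups overlapped by the narrow margin between SH replicate 3 and EE replicate 1, and the log2 fold change was −0.31 (SE 0.12, adjusted p = 0.237), or −0.19 without SH replicate 2. Cacna2d3 read 54.9, 60.2 and 65.5 CPM in SH and 53.0, 70.1 and 69.0 CPM in EE. EE replicate 1 was the lowest of the 6 libraries and the other EE libraries the highest, and the log2 fold change was 0.09 (SE 0.11, 95% interval −0.16 to 0.34, adjusted p = 0.752).

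**Figure D3:**
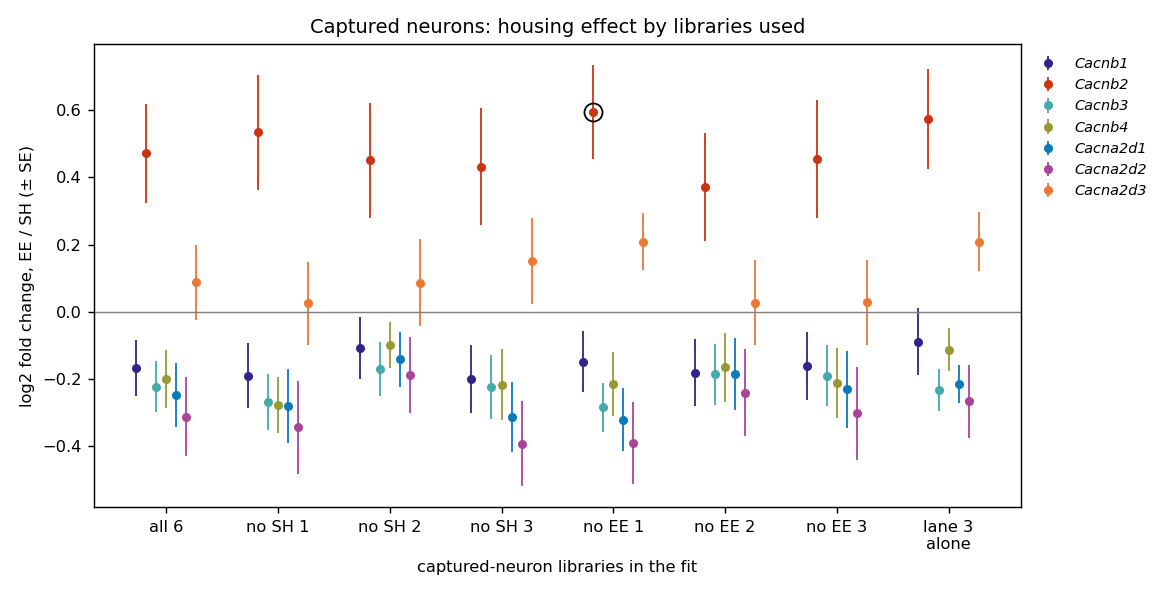
Log2 fold change of EE over SH in captured neurons (vertical axis, whiskers ± SE) for each gene with all 6 libraries, with each library left out and within lane 3; the ring marks the only fit with adjusted p under 0.05. Cacnb2 stays between 0.37 and 0.59, Cacna2d3 between 0.03 and 0.21, and the other 5 genes stay below 0, closest to it without SH replicate 2 or within lane 3.

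The plot by libraries used shows that the sign of none of the 7 log2 fold changes in captured neurons depended on a single library. Summed over a family, the β genes read 90.6 ± 7.84 CPM/kb in captured SH and 78.8 ± 3.37 in captured EE, with ranges of 83.5 to 99.0 and 76.5 to 82.6. The α2δ genes read 107 ± 11.3 and 93.8 ± 4.42 CPM/kb, with ranges of 100.0 to 120.3 and 89.6 to 98.4. Both families were thus lower in captured EE libraries, and the α2δ level over the β level stayed at 1.18 ± 0.0546 in SH and 1.19 ± 0.0194 in EE. The smallest two-sided p that an exact permutation test can give with 3 against 3 libraries is 0.1, so these sums were not tested.

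Marker genes of cell types moved with housing in the same captured libraries, and their part in these results was not tested. Large-diameter neuron markers summed to 9070 to 11474 CPM in SH and 11775 to 15819 CPM in EE, with a positive log2 fold change for 13 of 14 genes. Nociceptor markers summed to 4048 to 4709 CPM in SH and 3173 to 3969 CPM in EE, negative for 12 of 14, of which Mrgprb5 fell (adjusted p = 0.0119, edgeR's quasi-likelihood test with Benjamini-Hochberg adjustment). Satellite glia markers summed to 2281 to 2662 CPM in SH and 2898 to 3204 CPM in EE, positive for 8 of 10, of which Fabp7 rose (adjusted p = 0.0322, same test). Markers of neurons of all sizes summed to 6030 to 6415 CPM in SH and 6900 to 6978 CPM in EE. By gene they were mixed, with 7 of 10 positive and 3 negative. Every EE library lay above SH for 3 of the 10 (10.2% of all genes) and below for 2 (10.9%). The sums of Schwann cell, macrophage, vascular, fibroblast and erythrocyte markers overlapped between housings. EE replicate 1 had the lowest large-neuron sum (11775 CPM) and the highest nociceptor sum (3969 CPM) of the EE libraries. It was also the EE library nearest to SH for Cacnb2, Cacnb3, Cacnb4, Cacna2d1 and Cacna2d2. For Cacnb1, at 25.0 CPM, it was the EE library farthest from SH, and for Cacna2d3, at 53.0 CPM, the lowest captured library. In RNA from many cells, fewer cells of a type and less RNA per cell cannot be told apart. In whole ganglia, the large-neuron sums were 15256 to 16354 CPM in SH and 14111 to 14669 CPM in EE, those of neurons of all sizes 11094 to 11201 and 10656 to 10690 CPM, and nociceptor sums overlapped. By gene, the large-neuron log2 fold changes there were positive for 8 of 14 and negative for 6, with a median of 0.01. Those of neurons of all sizes were positive for 1 of 10 and negative for 9.

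The housing effect itself was compared between preparations in a model over all 12 libraries. No member passed (0 of 7, and 0.0% of all 17412 genes), and 2 of 7 had an unadjusted p under 0.05 (11.7% of all genes), both lower (6.39%). DESeq2, in which 2.31% of the 6270 genes given an adjusted p passed, limma-voom and the likelihood ratio test called 0 members. DESeq2 gave no adjusted p for Cacnb2 and Cacna2d2, however, and could call at most 5. The difference was above 0 for 1 member (48.5% of all genes) and below 0 for 6 (51.5%). Cacna2d1 had the smallest p, with a difference of log2 fold changes (captured minus whole) of −0.39 (SE 0.14, 95% interval −0.69 to −0.10), adjusted p = 0.305 by edgeR's quasi-likelihood test with Benjamini-Hochberg adjustment. Its own values were 0.14 in whole ganglia and −0.25 in captured neurons. Cacnb4 differed by −0.30 (SE 0.13, adjusted p = 0.389) and Cacnb2 by 0.42 (SE 0.21, 95% interval −0.02 to 0.85, adjusted p = 0.451). The remaining differences were −0.27 for Cacna2d2, −0.22 for Cacnb3, −0.16 for Cacnb1 and −0.0024 for Cacna2d3. With no filter on low counts Cacna2d1 passed (−0.39, SE 0.11, adjusted p = 0.0433, same test), in a fit where 1.24% of all names with a count passed.

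**Figure D4:**
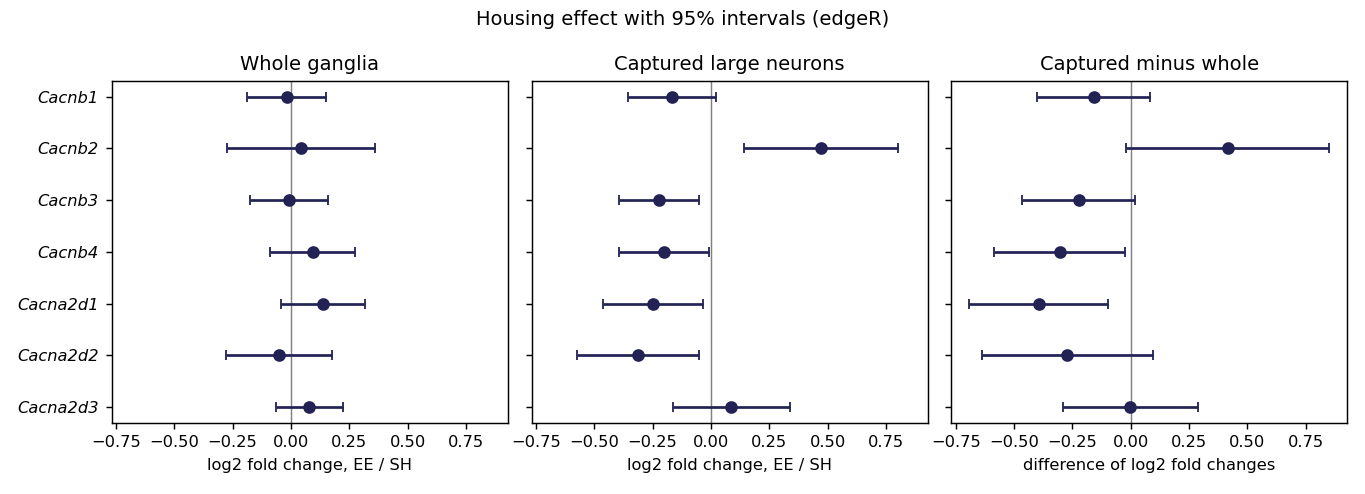
Log2 fold change of EE over SH with 95% intervals (horizontal axis) for the 7 genes in whole ganglia, in captured neurons, and as the difference of both. Intervals in whole ganglia all include 0; in captured neurons those of Cacnb2, Cacnb3, Cacnb4, Cacna2d1 and Cacna2d2 do not, although none passes after adjustment.

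In the plot of intervals, that of Cacnb2 is the widest in each comparison. Genes whose levels ran most like a member over 6 libraries were found for the member with the smallest p in each preparation, as a description over shared libraries. For Cacnb2 in captured neurons these included Fam20b (Pearson r = 0.996 on log2 CPM), Acss2 (0.989), Acn9 (0.989) and Ptprs (0.986), out of 7911 genes compared, 159 of which reached at least 0.9. For Cacna2d1 in whole ganglia they were Fam63b (0.995), Scamp1 (0.992), Snx16 (0.992), Prkaa2 (0.991) and 2610002M06Rik (0.990), out of 8721 genes, 416 of which reached at least 0.9.

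Pore subunit genes, whose products the auxiliary subunits bind, had negative log2 fold changes in captured neurons, with no gene past the threshold. For this list and those that follow, the shares over all captured genes were 49.9% positive and 50.1% negative, 15.9% with an unadjusted p under 0.05, 10.2% with every EE library above SH and 10.9% with every EE library below. DESeq2 called 5.44% of the 9587 captured genes to which it gave an adjusted p. In whole ganglia 51.3% were positive, 48.7% negative and 2.9% had an unadjusted p under 0.05. Of 10 listed, 8 were tested, all 8 negative, 5 with an unadjusted p under 0.05, and the median was −0.39. Without captured SH replicate 2, 9 were tested and 0 passed, in a fit where 0 of all 16516 genes passed. Cacna1s was then positive, 3 had an unadjusted p under 0.05 and the median was −0.24. Cacna1b, the N-type pore, read 177, 248 and 197 CPM in SH and 142, 141 and 155 CPM in EE (log2 fold change −0.50, SE 0.11, adjusted p = 0.120). Cacna1c, an L-type pore, went from 113 ± 14.0 to 84.1 ± 6.04 CPM (−0.42, SE 0.095, adjusted p = 0.123) and Cacna1i, a T-type pore, from 12.1 ± 2.46 to 6.10 ± 1.47 CPM (−0.99, SE 0.20, adjusted p = 0.1002). All 3 were lower in every EE library. The P/Q-type pore Cacna1a overlapped between housings (−0.35, SE 0.13, adjusted p = 0.231, all by edgeR's quasi-likelihood test with Benjamini-Hochberg adjustment). DESeq2 called Cacna1b (adjusted p = 0.00148) and Cacna1c (adjusted p = 0.00448) and gave Cacna1i no adjusted p. The likelihood ratio test, which called 389 of all 16186 genes, called Cacna1b, Cacna1c and Cacna1i. So did the quasi-likelihood test within lane 3, where 4.06% of all genes passed. Without EE replicate 1 Cacna1c (adjusted p = 0.0296) and Cacna1i (adjusted p = 0.0301) passed, where 3.64% of all genes did. In whole ganglia 9 were tested and 8 were positive, 0 passed, 0 had an unadjusted p under 0.05 and the median was 0.07.

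Of the γ subunit genes that were tested, 0 passed the threshold and 0 had an unadjusted p under 0.05 in either preparation. Cacna2d4, Cacng1 and Cacng6 did not pass the filter on low counts in either preparation and were not tested. Cacng8 was not tested in captured neurons. Of 9 listed, 6 were tested in whole ganglia, all negative with a median of −0.05, and 5 in captured neurons, 4 of them positive with a median of 0.17. Cacng7, the most abundant in CPM, lay at 99.9 ± 5.86 CPM in SH and 91.9 ± 10.9 CPM in EE of whole ganglia, and at 14.4 ± 1.80 and 16.2 ± 0.733 CPM in captured neurons.

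Proteins that bind β subunits include the small GTPases Rem1, Rem2, Rrad and Gem, which inhibit the channels, and the scaffolds Ahnak, Bsn, Rims1, Rims2 and Rimbp2. In captured neurons 8 of 10 listed genes were tested, 4 positive and 4 negative, 3 with an unadjusted p under 0.05, and 0 passed. Rem2 read 6.05, 6.03 and 6.62 CPM in SH and 9.19, 11.5 and 8.81 CPM in EE, every EE library above every SH library (log2 fold change 0.66, SE 0.15, adjusted p = 0.124). It passed without EE replicate 1 (0.71, SE 0.16, adjusted p = 0.0450). Ahnak, a very large scaffold, lay at 2989 ± 136 CPM in SH and 2439 ± 23.2 CPM in EE, all EE libraries below SH (−0.29, SE 0.058, adjusted p = 0.0960). DESeq2 called it (adjusted p = 0.00221), and it passed without EE replicate 1 (adjusted p = 0.0232). Ahnak also passed within lane 3, where 4.06% of all genes did, and 3.64% did without EE replicate 1. The likelihood ratio test called Ahnak and Rem2. Without SH replicate 2, 0 of the 8 genes passed, as did 0 of all genes, and 2 had an unadjusted p under 0.05. Bsn stood at −0.38 (SE 0.14, adjusted p = 0.220). The adjusted p-values not credited to DESeq2 are from edgeR's quasi-likelihood test with Benjamini-Hochberg adjustment. In whole ganglia 7 were tested, 0 passed and 0 had an unadjusted p under 0.05, Ahnak standing at 0.14 (SE 0.089).

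Ligands and partners of α2δ subunits include the thrombospondins, secreted proteins that bind Cacna2d1, and the neurexins. Thbs4 read 6.48, 7.65 and 9.11 CPM in SH and 8.55, 16.7 and 11.3 CPM in EE of whole ganglia, EE replicate 2 standing highest and EE replicate 1 within the SH range. The log2 fold change was 0.66 (SE 0.20, adjusted p = 0.9996, edgeR's quasi-likelihood test with Benjamini-Hochberg adjustment). With the replicate block, which pairs the libraries that shared a lane, Thbs4 rose (0.63, SE 0.14, adjusted p = 0.0167, same test), where 0.202% of all genes passed, and with length and GC content corrected as well it did not pass (0.64, SE 0.14, adjusted p = 0.178; 0.101% of all genes passed). Skeletal muscle markers also differed between these libraries, summing to 8.10, 22.8 and 197 CPM in SH replicates 1 to 3 and 16.7, 257 and 91.1 CPM in EE replicates 1 to 3, and their part in the Thbs4 value was not tested. In captured neurons Thbs4 was higher in all EE libraries (3.97 ± 1.26 CPM in SH, 6.68 ± 1.09 CPM in EE, 0.75, SE 0.24, adjusted p = 0.181, same test). The 10 genes of this list had a median of 0.01 in whole ganglia and −0.15 in captured neurons, with 1 and 2 genes at an unadjusted p under 0.05, and no other gene of the list passed with or without the block.

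Other proteins that bind these channels, among them calmodulins and release proteins, gave 0 of 12 past the threshold in captured neurons, 5 with an unadjusted p under 0.05 and a median of −0.02. Snap25, part of the vesicle fusion complex, lay at 1305 ± 70.4 CPM in SH and 1665 ± 195 CPM in EE (log2 fold change 0.35, SE 0.087, adjusted p = 0.129, edgeR's quasi-likelihood test with Benjamini-Hochberg adjustment). Calm3 lay at 810 ± 69.8 and 992 ± 19.4 CPM (0.29, SE 0.072, adjusted p = 0.129, same test). Both were higher in every EE library, and DESeq2 called both (adjusted p = 0.00963 and 0.0126). The likelihood ratio test called 1 of the 12, Snap25. Without EE replicate 1 Snap25 (0.44, adjusted p = 0.00911) and Cabp1 passed, again by edgeR's quasi-likelihood test, where 3.64% of all genes did. Within lane 3 Cabp1, Calm3 and Snap25 passed, where 4.06% of all genes did. Without SH replicate 2, 0 of 12 passed, as did 0 of all genes, and 3 had an unadjusted p under 0.05. In whole ganglia 11 were tested, 0 passed, 0 had an unadjusted p under 0.05 and the median was −0.01.

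**Figure D5:**
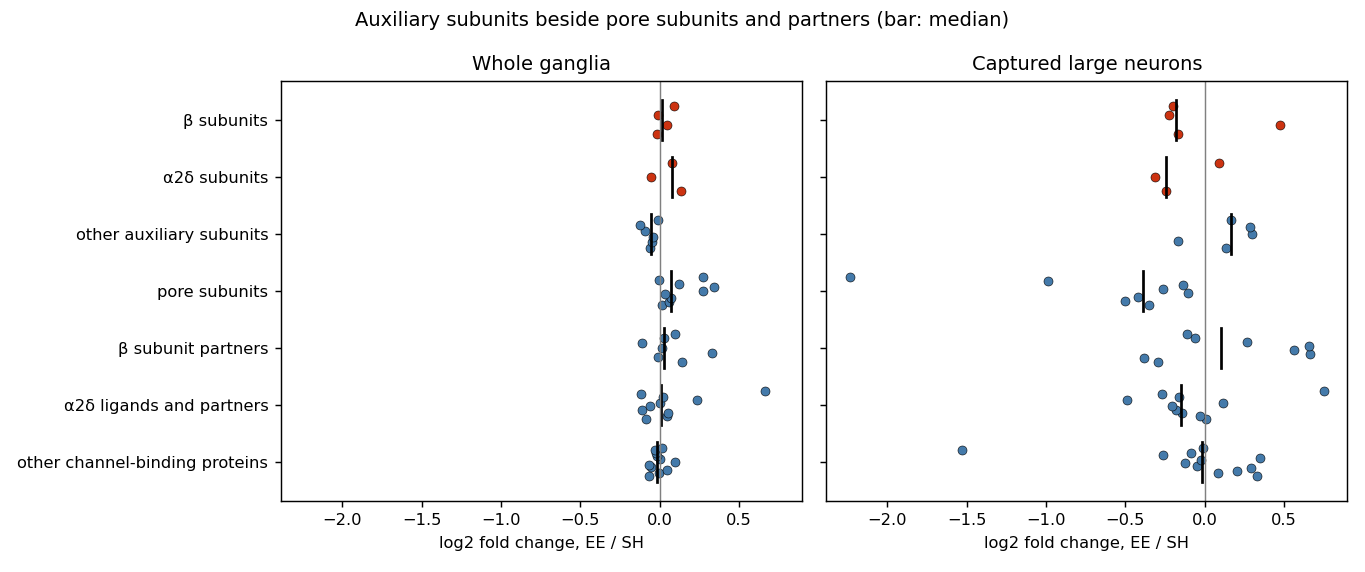
Log2 fold change of EE over SH (horizontal axis) of each tested gene by list in whole ganglia (left) and captured neurons (right), the 7 auxiliary subunit genes in red and related genes in blue, with the median of each list as a vertical bar. In captured neurons all 8 pore subunit genes lie below 0, and the spread in whole ganglia is narrower; the lowest pore gene at −2.24 is Cacna1s, the muscle pore.

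Over all 5 lists of related genes, limma-voom called 0 genes in either preparation and DESeq2 called 0 in whole ganglia. In the plot of related genes, the low point of the pore list was Cacna1s, at 7.91 CPM in captured SH replicate 2 and 0.302 to 0.878 CPM in the other captured libraries. Without that replicate its log2 fold change was 0.30 (SE 0.61).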

How the data were processed

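The values used were the authors' deposited read counts per gene name, in 1 table for each preparation. The submitters' processing notes list R 3.1.1 with limma 3.22.7 and edgeR 3.8.6, then FastQC 0.10.1, HTSeq 0.6.0, SAMtools 0.1.19, Bowtie2 2.2.3 and TopHat2 2.0.12, for build mm10, and give no roles. Reads in no feature (47.0 to 47.6% in whole ganglia, 28.0 to 36.3% in captured neurons) and not uniquely mapped (8.49 to 8.99% and 11.0 to 15.2%) were left out. Deposited FPKM of whole ganglia gave the length behind each gene's CPM/kb. The authors' second captured table held a signal proportional to the counts within each library and served as scaled counts. Positions use GENCODE vM21, whose build GRCm38 is that of mm10: Cacnb1 lies at chr11:98001508-98023034 (minus strand), Cacnb2 at chr2:14603088-14987908 (plus), Cacnb3 at chr15:98630840-98644529 (plus), Cacnb4 at chr2:52428320-52676831 (minus), Cacna2d1 at chr5:15934691-16374511 (plus), Cacna2d2 at chr9:107399612-107529343 (plus) and Cacna2d3 at chr14:28904943-29721864 (minus).

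Counts were filtered with filterByExpr, scaled by TMM and tested in each preparation with edgeR 4.0.16 (quasi-likelihood, R 4.3.3) at an adjusted p of 0.05. The difference of housing effects was the interaction contrast. Alternatives were DESeq2 1.42.0, limma-voom (limma 3.58.1), other scalings and filters, length and GC offsets (splines with 4 degrees of freedom, values for 91.1% and 89.9% of genes), limma on log2 of the deposited second tables with 1 or 0.1 added, a threshold of 0.1, a fit with lane 3 only, each library left out in turn and the replicate block. No 2 libraries of the same housing and preparation were duplicates (chi-square per degree of freedom 3.95 to 21.5), and pairs across housings were not compared in this way. The common biological coefficient of variation was 0.0741 in whole ganglia and 0.121 in captured neurons. On simulated counts the test recovered 85% of 1.5-fold changes in whole ganglia (15845 genes), 70% in captured neurons (16186 genes) and 38% for the difference (17412 genes). False calls were 21 of 206 in whole ganglia, 14 of 182 in captured neurons and 5 of 133 for the difference. The changed genes were drawn above a minimum expected count, which Cacnb2 in whole ganglia (59 to 91 reads) did not reach. The largest fold difference of a member was 1.39 (Cacnb2, captured neurons), so recovery of changes as small as those of the members was not measured. The labels give whole-ganglion libraries of 1 number a shared lane (lane 4, 5 or 6), which pairs them. Deviations from the group mean had correlations of 0.36, 0.35 and −0.03 within these pairs.

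The 7 members are defined by symbol alone, but they and the gene lists were chosen with earlier results of these data known. Named were all 7 members, of each related list up to 4 genes with the smallest p per comparison and any past the threshold, and the 5 genes with the highest Pearson correlation with the member of smallest p, among genes with an average log2 CPM of at least 4 and with 0.5 added to CPM. The text names some of these (1 result is not reported here), and Mrgprb5, Fabp7 and Cacna1s were named after their values were seen.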

Additional observations from a re-analysis of the deposited data

How the results depend on the processing

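The count of members past the threshold was 0 in whole ganglia under all alternatives run. In captured neurons it was 0 under all but 1, leaving out EE replicate 1, which gave 1 (Cacnb2, log2 fold change 0.59, adjusted p = 0.0466, edgeR's quasi-likelihood test with Benjamini-Hochberg adjustment), so the counts with a library left out ran from 0 to 1. For the difference between preparations it was 0 under all but 1, the fit with no filter, which gave 1 (Cacna2d1, −0.39, adjusted p = 0.0433, same test), and 0 with any library left out. The cause of both was not tested. Of 19 alternatives, 0 turned the sign of any member in captured neurons. In whole ganglia the sign turned in 3 for Cacnb1, 5 for Cacnb3 and 2 for Cacna2d2, all near 0, and for the difference it turned in 8 of 21 for Cacna2d3.

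The replicate block called 0 members in each comparison. For Cacna2d1 in whole ganglia it gave 0.13 (SE 0.064, adjusted p = 0.910), and for Cacnb2 in captured neurons 0.46 (SE 0.15, adjusted p = 0.191). Captured libraries share only a number, except that those of replicate 3 also share lane 3. Correlations within numbers were 0.23, −0.14 and 0.25. Over all genes, calls in whole ganglia went from 1 to 32 with the block, 16 with the block and length and GC corrected, 48 with no filter and 5 by the likelihood ratio test. In captured neurons they went from 3 to 522 by DESeq2, 389 by the likelihood ratio test, 902 with no filter, 658 within lane 3 and 602 without EE replicate 1. For the difference they went from 0 to 145 by DESeq2, 91 by the likelihood ratio test and 457 with no filter. Cacnb2 was not tested in whole ganglia with a minimum average log2 CPM of 3 or in the filtered second table. Its 59 to 91 reads per whole-ganglion library limit what could be seen, its 95% interval there running from −0.27 to 0.36.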
